A study of Mus musculus with 16 samples.

Results

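The 42 genes described here encode proteins that build ribosomes in the nucleolus, and among them the core proteins of the small nucleolar ribonucleoproteins (snoRNPs). They were taken by name from a list of ribosome biogenesis and snoRNP genes, and all 42 were found among the 22392 genes of the count table. Each gene is represented by the transcript with the most reads over all libraries, and the transcripts of Nop56 are also shown apart. By role they comprise 3 box C/D snoRNP proteins, 4 box H/ACA snoRNP proteins and 4 proteins of RNA polymerase I transcription. The others are 6 nucleolar proteins, 14 factors of the small ribosomal subunit and 11 factors of the large subunit.

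Ribosome production starts with transcription of a long precursor rRNA by RNA polymerase I. The precursor is then modified at many positions by snoRNPs, in which a small nucleolar RNA guides the enzyme: box C/D snoRNPs carry the methyltransferase fibrillarin and box H/ACA snoRNPs carry the pseudouridine synthase dyskerin. Cleavage, folding and export of the 2 subunits need a large set of further assembly factors, and the genes of this set are known as targets of the transcription factor MYC in dividing and tumour cells. Several of these genes also carry snoRNA genes in their introns, so that 1 primary transcript gives an mRNA and snoRNAs.

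Ribosome footprints (Ribo-seq) and RNA (RNA-seq) were measured in Hepa1-6 cells, a mouse hepatoma line. The groups were unedited WT cells and the clones #1, #2 and #3 (KO1, KO2 and KO3), from which exon 5 of Eef1d, a subunit of the translation elongation factor that recharges eEF1A, had been cut with CRISPR/Cas9. Each line gave 2 replicates, with both assays made from 1 lysate, which makes 16 libraries. Each knockout is 1 clone grown from a single cell, KO1 and KO2 were made with the same pair of guides and KO3 with another pair that has 1 guide in common, and WT cells are the parental population, so that a difference between a clone and WT cannot be told apart from a difference between cells of the starting line. RNA and footprint levels are given as CPM, counts scaled to a common library size, and the footprint level divided by the RNA level of the same lysate, on the log2 scale, is called translation efficiency (TE). Changes are log2 differences between a clone and WT with their standard error (SE), and a gene was called when its Benjamini-Hochberg adjusted p over all genes, from edgeR's quasi-likelihood test, was under 0.05.

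Summed over the table, RNA-seq libraries held 24726706 to 30748268 counts, and those of Ribo-seq 2604223 to 11147904, where KO1 had both the smallest (replicate 2) and the largest library (replicate 1). The 42 genes were covered in every library, with at least 482 RNA-seq counts (Gar1) and 47 footprint counts (Rrp9). Replicates correlated across genes with Pearson's r of 0.994 to 0.996 in RNA-seq and 0.984 to 0.991 in Ribo-seq. Eef1d counts on the transcript with exon 5 were 116% of those on the transcript without it in both WT RNA-seq libraries and 89.8% to 92.6% in the 6 clone libraries, where reads of the shared exons are counted on both. Of 7 hepatocyte markers, Alb, Afp and Hnf4a were above 20 CPM in every library, and Ttr, Apoa1, Apoh and Serpina1a were near or at 0. The summed RNA of the 7 markers was 1643 and 1540.5 CPM (WT), 643 and 648 (KO1), 1213 and 1115 (KO2) and 2948 and 3128 (KO3). The 6 markers of other cell types summed to 5.37 to 11.2 CPM over all libraries, and Myod1 was at 0. Alb and Afp make up most of the sum of the 7 hepatocyte markers. Alb was at 784 and 742 CPM (WT), 262 and 274 (KO1), 522 and 469 (KO2) and 1759 and 1882 (KO3). Afp was at 747 and 693 CPM (WT), 349 and 349 (KO1), 598 and 548 (KO2) and 1107 and 1159.8 (KO3). Hnf4a, by contrast, was at 109 and 104 CPM (WT), 30.9 and 23.5 (KO1), 92.8 and 98 (KO2) and 81.5 and 85 (KO3) and thus below WT in KO3 as well. These markers differed between the lines, as did the genes described below, and their part in those results was not tested.

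The Nop56 gene shows why transcripts and introns matter for this set. Nop56 (chr2:130274430-130279313, plus strand, GRCm38) encodes a core protein of box C/D snoRNPs, and 5 snoRNA genes lie within its introns. Intron 8 holds the snoRNA gene Gm23187 (chr2:130277195-130277280), and a stretch around it is also annotated as coding sequence of the transcript ENSMUST00000028890.14. The coding sequence of ENSMUST00000150401.7 starts within the same stretch, at chr2:130277218. That stretch is printed because reads from it count as Nop56 coding reads, with the snoRNA in capitals (chr2:130277157-130277314, plus strand, GRCm38 genome sequence).
Nop56 intron 8 stretch: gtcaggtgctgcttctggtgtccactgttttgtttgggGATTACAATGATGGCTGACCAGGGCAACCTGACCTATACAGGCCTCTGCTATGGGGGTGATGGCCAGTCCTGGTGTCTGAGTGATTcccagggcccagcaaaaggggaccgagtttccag
The snoRNA of intron 9, Gm23650 (chr2:130277697-130277766, plus strand), is shown beside it, because both are box C/D snoRNAs by their letters. Capitals mark TGATG, the core of box C, and CTGA, box D, as a script found them near the ends.
Gm23650: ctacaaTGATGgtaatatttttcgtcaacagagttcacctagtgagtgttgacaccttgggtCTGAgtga
Gm23187 has the same TGATG from base 9 and CTGA from base 77 of its 86 bases. Box C/D snoRNAs are the class of RNA that the Nop56 protein binds.

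In WT cells the set was well expressed. The median RNA level over the 42 genes was 6.52 on the log2 scale of CPM per kb of counted coding sequence, against 4.71 over 10529 genes, and the median footprint level was 6.32 against 4.35. Npm1 and Ncl were the highest of the set in RNA, with 2326 and 2388 CPM per kb for Npm1 and 1093 and 1119.9 for Ncl in the 2 WT libraries. They were followed by the small H/ACA protein genes Nhp2 (785 and 820.5) and Nop10 (428 and 359). The lowest were Nat10, which acetylates the small subunit rRNA (18.6 and 20), and Rrp12 (19.8 and 20.6), which do not differ beyond the spread of the 2 libraries.

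TE in WT cells differed more between members than between replicates. It ran from -0.94 to 1.14 on the log2 scale, with a median of 0.022 against -0.17 over all 10529 genes. Gar1, a small H/ACA snoRNP subunit that binds dyskerin, was highest with 1.32 and 0.95 in the 2 lysates. Nop16 followed with 0.56 and 0.55 and Nop10 with 0.39 and 0.63. Noc2l, a nucleolar factor of large subunit transport, was lowest with -0.89 and -0.99, next to Rrp9, a protein of the box C/D snoRNP of early rRNA cleavage, with -0.82 and -0.99, and these last values overlap. Across the 42 genes TE fell with the length of the counted coding sequence (Pearson's r = -0.36, Spearman's rho = -0.43, n = 42 genes measured in the same libraries, given as a description).

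RNA of these genes changed in each clone, and in different directions. In KO1, 19 of 42 genes were called for RNA (45.2%, against 46.7% of the 11515 genes tested), 10 higher and 9 lower, where 22.1% and 24.6% of all genes were called in those directions. In KO2, 10 were called (23.8% against 20.4%), 7 higher (16.7% against 11.6%) and 3 lower (7.14% against 8.84%). In KO3, 27 were called (64.3% against 45.4%), 7 higher (16.7% against 23.1%) and 20 lower (47.6% against 22.3%). Median changes over the set were 0.033, -0.0086 and -0.15 in KO1, KO2 and KO3, on a scale on which the change of all genes is centred near 0. The share called was thus near that of all genes in KO1 and KO2, and lower RNA was more frequent in the set than over all genes in KO3. The median SE of the RNA changes was 0.061, 0.063 and 0.062 in the set (KO1, KO2 and KO3), against 0.108, 0.111 and 0.106 over all genes. Smaller changes could therefore be called in the set, so its shares called do not compare evenly with those of all genes.

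**Figure D1:**
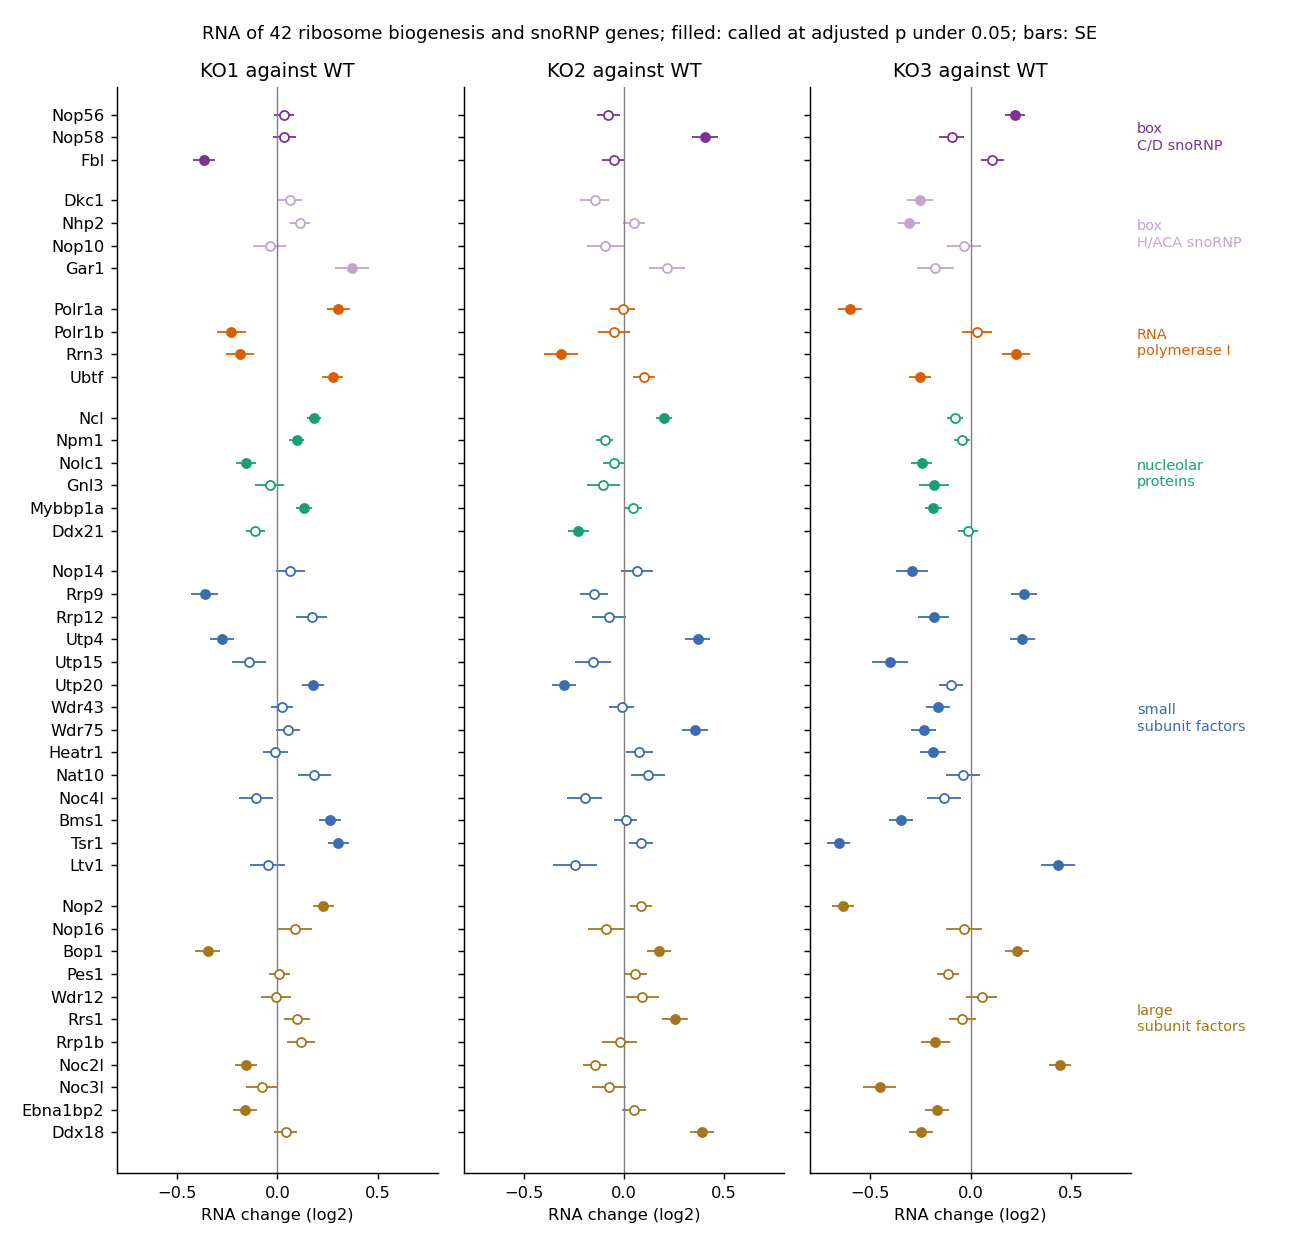
RNA change of each of the 42 genes against WT on the log2 scale, in 1 panel for each clone and ordered by role. Points are the fitted change, bars its SE (2 libraries for each line), and filled points were called. The KO3 panel holds 20 filled points left of 0 and 7 right of it, while the KO1 panel holds 9 and 10.

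The RNA of the box C/D snoRNP genes was called in different clones. Fbl encodes fibrillarin, the methyltransferase of the complex (chr7:28169710-28179269, plus strand). Its RNA level was 247 and 260.4 CPM (WT), 201 and 193 (KO1), 251 and 238 (KO2) and 282 and 266 (KO3). Fbl was lower in KO1 than in all other libraries (-0.37, SE 0.0553, adjusted p = 1.63e-07), and its footprints changed (-0.53, SE 0.0767, adjusted p = 2.48e-07). Nop58, the partner of Nop56 on the other side of the complex (chr1:59684971-59719044, plus strand), was at 198 and 200.2 CPM (WT), 197 and 210.3 (KO1), 279 and 247 (KO2) and 199.6 and 173 (KO3). In KO2 it rose, with a change of 0.40 (SE 0.0634, adjusted p = 5.68e-05) in RNA and 0.52 (SE 0.0712, adjusted p = 4.62e-06) in footprints, and both KO2 libraries lie above all others. Nop56 itself was at 347 and 340.0 CPM (WT), 352 and 351 (KO1), 335 and 315 (KO2) and 411 and 391 (KO3), and it rose in KO3 (0.22, SE 0.0512, adjusted p = 0.000187). In each clone, then, 1 of the 3 subunits was called for RNA, Fbl in KO1, Nop58 in KO2 and Nop56 in KO3. Over all genes, 46.7% (KO1), 20.4% (KO2) and 45.4% (KO3) were called, and with 3 genes nothing is read from these counts.

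Among the box H/ACA proteins, Gar1 (chr3:129824912-129831396, minus strand) had 45.3 and 47.7 CPM (WT), 60.2 and 60.3 (KO1), 52.8 and 55 (KO2) and 43 and 39.5 (KO3) in RNA-seq. It rose in KO1 (0.37, SE 0.086, adjusted p = 0.000297), and KO1 lies above the other lines without overlap. Gar1 footprints were at 113 and 92.1 CPM (WT), 98 and 95.6 (KO1), 116 and 113 (KO2) and 95 and 83.6 (KO3), where KO1 lies within the range of WT, with a change of -0.11 (SE 0.104, adjusted p = 0.491). Dkc1 encodes dyskerin, the pseudouridine synthase, and Nhp2 an RNA-binding subunit, and both fell in KO3, with changes of -0.25 (SE 0.0654, adjusted p = 0.00084) and -0.31 (SE 0.0529, adjusted p = 9.73e-07). Nop10, the smallest subunit with 55 counted codons, was called in no clone, with RNA changes of -0.039 (KO1), -0.093 (KO2) and -0.034 (KO3).

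Of the 4 RNA polymerase I genes, 4 were called for RNA in KO1, 1 in KO2 and 3 in KO3, where 46.7%, 20.4% and 45.4% of all genes were called. Polr1a encodes the largest subunit of the polymerase (chr6:71909053-71984935, plus strand). Its RNA level was 197 and 209.5 CPM (WT), 247 and 255 (KO1), 194 and 209 (KO2) and 136 and 132 (KO3), which puts both KO1 libraries highest and both KO3 libraries lowest. The change was 0.30 (SE 0.0552, adjusted p = 7.38e-06) in KO1 and -0.60 (SE 0.0618, adjusted p = 5.49e-14) in KO3. Footprints of Polr1a followed, at 189 and 185 CPM (WT), 241 and 248 (KO1), 192 and 172 (KO2) and 119 and 107 (KO3), with changes of 0.36 (SE 0.0796, adjusted p = 0.000367) and -0.73 (SE 0.0818, adjusted p = 9.27e-10). Ubtf, which binds the rDNA promoter, moved the same way with 0.28 (KO1), 0.10 (KO2) and -0.25 (KO3), called in KO1 and KO3. Rrn3, the factor that brings the polymerase to the promoter (chr16:13780708-13814839, plus strand), moved the other way, at 96 and 101 CPM (WT), 85.5 and 88 (KO1), 86.7 and 72 (KO2) and 116 and 115 (KO3). It fell in KO1 (-0.19, SE 0.071, adjusted p = 0.0264) and in KO2 (-0.32, SE 0.0852, adjusted p = 0.00945) and rose in KO3 (0.23, SE 0.0696, adjusted p = 0.00529). The KO2 call of Rrn3 was lost without WT replicate 2 (-0.28, adjusted p = 0.0811) or without KO2 replicate 2 (-0.18, adjusted p = 0.136). Polr1b, another core subunit, fell in KO1 (-0.23, SE 0.0743, adjusted p = 0.00923), with -0.049 in KO2 and 0.031 in KO3.

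RNA changes called for the nucleolar proteins ran from -0.24 to 0.20. Ncl encodes nucleolin, which binds rRNA and chromatin of the rDNA, and rose in KO1 (0.18) and KO2 (0.20). Npm1, the histone and ribosomal protein chaperone, rose in KO1 (0.10, SE 0.0369, adjusted p = 0.0303). Mybbp1a rose in KO1 (0.13) and fell in KO3 (-0.19), while Nolc1, a chaperone of snoRNPs, fell in both (-0.16 and -0.24). Gnl3, the nucleolar GTPase nucleostemin, fell in KO3 (-0.18). The helicase Ddx21 was at 422 and 404 CPM (WT), 389 and 377 (KO1), 353 and 352 (KO2) and 415 and 405 (KO3) and fell in KO2 (-0.23, SE 0.053, adjusted p = 0.00309), a call that was lost without WT replicate 1 (-0.19, adjusted p = 0.114).

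The small subunit factors include the gene with the largest RNA change of the set. Tsr1, a factor of the late small subunit precursor (chr11:74898071-74909342, plus strand), was at 309 and 299 CPM (WT), 391 and 359 (KO1), 339 and 304 (KO2) and 206 and 179.9 (KO3). KO1 lies above and KO3 below all other libraries, with changes of 0.30 (SE 0.051, adjusted p = 1.7e-06) and -0.66 (SE 0.0578, adjusted p = 4.39e-17), and KO2 overlaps WT. Its footprints, at 306 and 317 CPM (WT), 366 and 307 (KO1), 331 and 301 (KO2) and 208 and 189.7 (KO3), fell in KO3 (-0.66, SE 0.0707, adjusted p = 3.71e-10). The GTPase Bms1 had the same order with 0.26 (KO1), 0.0081 (KO2) and -0.35 (KO3), called in KO1 and KO3.

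Rrp9 (chr9:106475963-106485424, plus strand) had the opposite order to Tsr1, with 120.5 and 122 CPM (WT), 95.5 and 93 (KO1), 114 and 104 (KO2) and 153 and 138 (KO3) in RNA-seq. It fell in KO1 (-0.36, SE 0.0676, adjusted p = 1.14e-05) and rose in KO3 (0.27, SE 0.0661, adjusted p = 0.000509). The footprints of Rrp9 were 68.1 and 61.6 CPM (WT), 46.4 and 40.1 (KO1), 62.1 and 56.7 (KO2) and 70.2 and 68.9 (KO3) and fell in KO1 (-0.55, SE 0.125, adjusted p = 0.000552), whereas KO3 had 0.078 (SE 0.107, adjusted p = 0.627). Utp4, a subunit of the first complex on the nascent precursor (chr8:106893636-106923088, plus strand), was called in each clone, at 164 and 162 CPM (WT), 139.5 and 129 (KO1), 216 and 204 (KO2) and 205 and 186 (KO3). It fell in KO1 (-0.28, SE 0.0621, adjusted p = 0.000208) and rose in KO2 (0.37, SE 0.0615, adjusted p = 0.000121) and in KO3 (0.26, SE 0.0612, adjusted p = 0.000276), and no clone overlaps WT.

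Utp20, a very long scaffold protein of 2780 counted codons, was at 201 and 208 CPM (WT), 228 and 236 (KO1), 168 and 165 (KO2) and 202 and 181 (KO3). It rose in KO1 (0.18, SE 0.0553, adjusted p = 0.00665) and fell in KO2 (-0.30, SE 0.0605, adjusted p = 0.000903). Its footprints behaved alike, with 0.34 (KO1), -0.38 (KO2) and -0.12 (KO3), called in KO1 and KO2. Ltv1, which takes part in export and maturation of the small subunit, had 67.5 and 53.9 CPM (WT), 60.4 and 56.8 (KO1), 56.5 and 45.8 (KO2) and 87.2 and 76.7 (KO3) in RNA-seq and rose in KO3 (0.43, SE 0.0842, adjusted p = 1.09e-05), with footprints up (0.52, SE 0.106, adjusted p = 0.000156). Both KO3 libraries lie above all others. In KO3 the RNA of Nop14, Rrp12, Utp15, Wdr43, Wdr75 and Heatr1 also fell, by 0.16 (Wdr43) to 0.40 (Utp15). Wdr75 rose in KO2 (0.36, SE 0.0646, adjusted p = 0.000295). Nat10 and Noc4l were called in no clone, with 0.18 (KO1), 0.12 (KO2) and -0.038 (KO3) for Nat10 and -0.11 (KO1), -0.20 (KO2) and -0.13 (KO3) for Noc4l.

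Of the large subunit factors, Nop2 changed most. It encodes a methyltransferase of the large subunit rRNA (chr6:125131909-125144753, plus strand) and was at 366 and 336 CPM (WT), 428 and 394 (KO1), 372 and 372 (KO2) and 236 and 216 (KO3). KO1 rose (0.23, SE 0.0507, adjusted p = 0.00017) and KO3 fell (-0.64, SE 0.0556, adjusted p = 3.32e-17), with KO3 far below every other library. Footprints of Nop2 were 355 and 356 CPM (WT), 439 and 365 (KO1), 393 and 368 (KO2) and 233 and 218 (KO3), with 0.20 (SE 0.074, adjusted p = 0.0376) in KO1 and -0.67 (SE 0.0678, adjusted p = 8.01e-11) in KO3. Noc2l (chr4:156236010-156247616, plus strand) had 266 and 242 CPM (WT), 237 and 218 (KO1), 235 and 224 (KO2) and 356 and 336 (KO3) in RNA-seq, fell in KO1 (-0.16, SE 0.0562, adjusted p = 0.0181) and rose in KO3 (0.44, SE 0.0547, adjusted p = 5.47e-11). Noc3l, its relative, instead fell in KO3 (-0.45, SE 0.0817, adjusted p = 2.48e-06).

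Bop1, Pes1 and Wdr12 form the PeBoW complex of large subunit processing, and only Bop1 was called among the 3. Bop1 (chr15:76452989-76477277, minus strand) lies on the same chromosome as Eef1d (chr15:75894205-75909556). Its RNA level was 172 and 173 CPM (WT), 144 and 127 (KO1), 191 and 197 (KO2) and 207 and 198 (KO3), with the KO1 libraries lowest and all KO2 and KO3 libraries above WT. The changes were -0.35 (SE 0.0629, adjusted p = 6.75e-06) in KO1, 0.17 (SE 0.0603, adjusted p = 0.0435) in KO2 and 0.23 (SE 0.0597, adjusted p = 0.000927) in KO3. Pes1 had 0.0095 (KO1), 0.057 (KO2) and -0.11 (KO3), and Wdr12 had -0.0058 (KO1), 0.092 (KO2) and 0.055 (KO3). The helicase Ddx18 (chr1:121553835-121567989, minus strand) was at 207 and 222 CPM (WT), 232 and 211 (KO1), 286 and 276 (KO2) and 191 and 172 (KO3), rose in KO2 (0.39, SE 0.0589, adjusted p = 3.7e-05) and fell in KO3 (-0.25, SE 0.0602, adjusted p = 0.000444). Rrs1 rose in KO2 (0.26), Rrp1b fell in KO3 (-0.18), Ebna1bp2 fell in KO1 and KO3 (-0.16 and -0.17) and Nop16 was called in no clone.

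**Figure D2:**
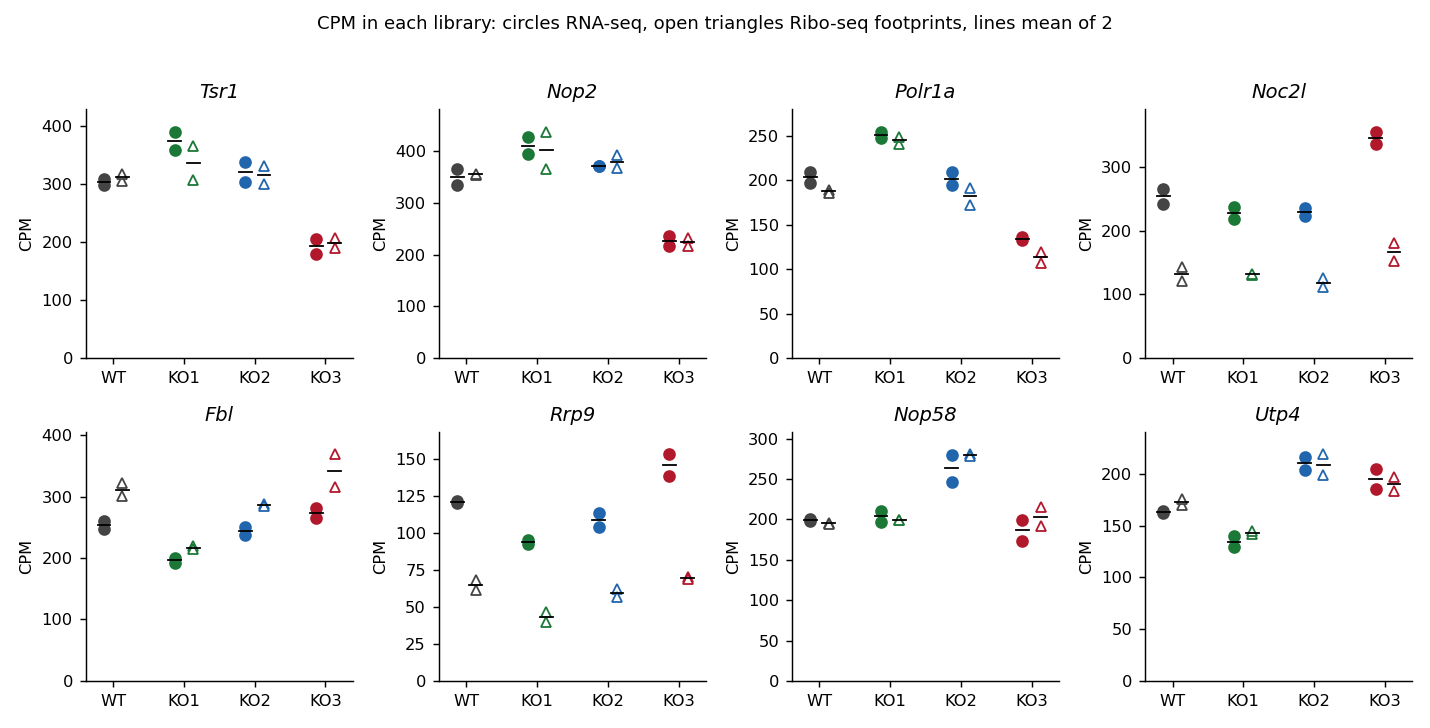
CPM of 8 genes in each library, with RNA-seq as circles and footprints as open triangles, the lines WT and KO1 to KO3 along the x axis, and short lines at the mean of 2 replicates; every y axis starts at 0. Tsr1, Nop2 and Polr1a have their lowest values in KO3 and their highest RNA in KO1, Rrp9 has the reverse order in RNA, and Nop58 stands out in KO2.

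Between the clones the genes therefore differed. Of the 42 genes, 0 were called for RNA in all 3 clones in 1 direction, where 1.69% of the 11281 genes tested in each clone were. In all 3 clones 3 genes (Bop1, Utp4 and Rrn3) were called, where 7.92% of all genes were, and 6 genes (Nop10, Nop16, Nat10, Noc4l, Pes1 and Wdr12) in none, where 28.6% of all genes were not. RNA of 14 of the 42 genes was called in opposite directions in a pair of clones, against 20.1% of all genes. Polr1a, Ubtf, Mybbp1a, Bms1, Tsr1 and Nop2 rose in KO1 and fell in KO3 (6 of 42, against 6.46%), and Rrn3, Rrp9, Utp4, Bop1 and Noc2l fell in KO1 and rose in KO3 (5 of 42, against 7.06%). The test of whether the 3 clones had equal RNA changes called 36 of 42 genes (85.7%), against 74% of the 11755 genes tested. For footprints it called 31 (73.8%), against 59.5%. The smaller SE of the set, given above for RNA, limits the comparison of these shares with all genes as well. The smallest p-values for RNA were those of Tsr1 (adjusted p = 5.06e-15), Nop2 (5.44e-15) and Polr1a (1.76e-14).

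KO1 and KO3 were also compared without the WT libraries, a comparison added after the data had been seen. RNA differed for 32 genes (76.2%), 9 higher and 23 lower in KO3 than in KO1, where 61.8% of all genes were called in either direction. Footprints differed for 25 (59.5% against 47.4%). Shares of all genes by direction are not given for this comparison, so nothing is read from the split of 9 and 23. The smaller SE of the set limits the other shares here too. In RNA, the largest differences (KO3 minus KO1) were -0.97 for Tsr1 (SE 0.061), -0.92 for Polr1a (SE 0.0657) and -0.88 for Nop2 (SE 0.0597) among the lower and 0.62 for Rrp9 (SE 0.0732) among the higher genes. In footprints they were -1.11 for Polr1a (SE 0.0844) and 0.69 for Ltv1 (SE 0.113).

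Footprints moved with RNA. In KO1, 12 of 42 genes were called for footprints (28.6% against 26.9% of 10335 genes), 6 higher and 6 lower (11.7% and 15.2% over all genes). In KO2, 7 were called (16.7% against 11.7%), 4 higher and 3 lower (6.74% and 4.96%). In KO3, 17 were called (40.5% against 30.6%), 2 higher (Ltv1 and Noc2l) and 15 lower (14.9% and 15.7%). Genes called in both assays had the same direction, namely all 10 in KO1, all 7 in KO2 and all 17 in KO3. Of the genes called for RNA, 16 of 19 in KO1, all 10 in KO2 and all 27 in KO3 had a footprint change of the same sign. The exceptions in KO1 were Gar1, Ncl and Npm1, with footprint changes of -0.11, -0.0037 and -0.052. Pearson's r between the 2 changes was 0.80, 0.918 and 0.934 over 42 genes in KO1, KO2 and KO3, as a description, since the genes share libraries.

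Nop56 and Rrp12 were called for footprints and not for RNA in KO1, and no gene was in KO2 or KO3. Nop56 footprints were at 349 and 333 CPM (WT), 390.1 and 407 (KO1), 348 and 302 (KO2) and 386 and 385 (KO3), where KO1 and KO3 lie above WT, and the change was 0.20 (SE 0.0712, adjusted p = 0.0298) in KO1 and 0.16 (SE 0.0642, adjusted p = 0.0526) in KO3. Rrp12, an export factor of both subunits, had 80.1 and 72.7 CPM (WT), 107 and 78.5 (KO1), 73.7 and 63.7 (KO2) and 72.1 and 55.7 (KO3), so that KO1 overlaps WT. Its change of 0.35 (SE 0.111, adjusted p = 0.013) in KO1 rests on KO1 replicate 1 and was 0.022 (adjusted p = 0.961) without it. Footprint calls of the set depended on the tool, and the share of all genes called with the other tool is not given here. DESeq2 called 3, 1 and 9 genes in KO1, KO2 and KO3, and the footprint calls of Rrp12, Utp20 and Rrp9 in KO1, of Ddx18, Utp4, Rrn3, Utp20 and Ddx21 in KO2 and of Noc2l in KO3 were among those lost with it, each in the same direction. Without KO1 replicate 1, the deepest Ribo-seq library, 5 genes were called in KO1, and without WT replicate 1 or WT replicate 2 there were 6 or 7. Without WT replicate 1, 4 were called in KO2, where the footprint calls of Utp4, Rrn3 and Ddx21 were lost. That of Utp4 was also lost without KO2 replicate 1, and that of Noc2l in KO3 without WT replicate 2 or KO3 replicate 1.

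**Figure D3:**
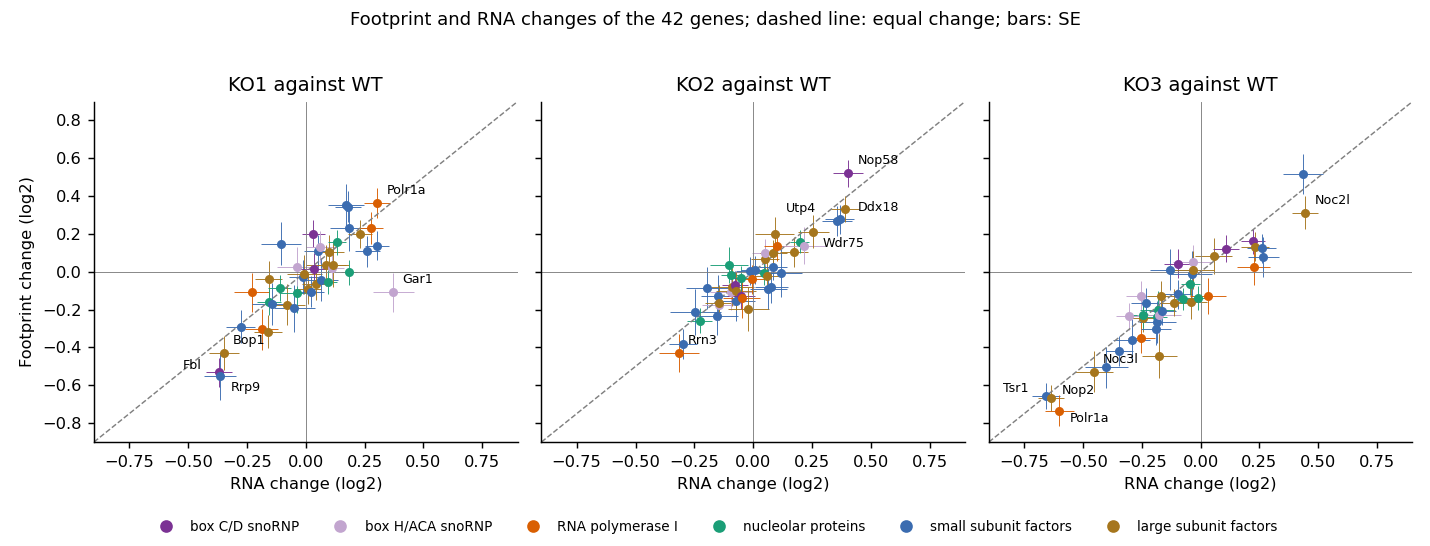
Footprint change against RNA change of the 42 genes on the log2 scale, with 1 panel for each clone, points coloured by role and bars for the SE. Points lie along the dashed line of equal change in the 3 panels, with Gar1 in KO1 (RNA 0.37, footprints -0.11) far below it.

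TE of the set did not pass the test in any clone. By edgeR, 0 of 42 genes were called in each clone, where 0.0942% (KO1), 0.0173% (KO2) and 0.104% (KO3) of all genes were called, and 3, 0 and 0 had an unadjusted p under 0.05. DESeq2 called 0 as well, with no adjusted p for Gar1 in KO1. TE changes ran from -0.47 to 0.26 in KO1, from -0.18 to 0.14 in KO2 and from -0.26 to 0.15 in KO3, with a median SE of 0.103, 0.103 and 0.101. The test for equal TE changes in the clones called 0 of 42 (1.03% of all genes) and 4 had an unadjusted p under 0.05.

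Gar1 had the largest TE change of the set. Its TE level was 1.32 and 0.95 (WT), 0.70 and 0.66 (KO1), 1.13 and 1.04 (KO2) and 1.14 and 1.08 (KO3), with both KO1 lysates below every other. The change in KO1 was -0.47 (SE 0.132, adjusted p = 0.307). With the lysate as a block, which pairs the assays made from the same lysate, the change was -0.47 (SE 0.117, adjusted p = 0.0243), and Gar1 was then the 1 gene of the set called, where 0.711% of all genes were called. WT lysates of Gar1 differed by more than those of the clones, and the change was -0.26 without WT replicate 1 and -0.64 without WT replicate 2. In KO2 and KO3, Gar1 had TE changes of -0.075 and -0.047, which turned to 0.14 and 0.17 without WT replicate 1.

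Nop56 was followed transcript by transcript. The full-length transcript ENSMUST00000103198.10, with 12 coding exons and 571 counted codons, had 3817 and 3995 (WT), 4068 and 3736 (KO1), 3584 and 3873 (KO2) and 5187 and 4773 (KO3) as RNA counts. Its footprint counts were 1251 and 807 (WT), 1926 and 477 (KO1), 1390 and 899 (KO2) and 1570 and 1229 (KO3). TE of Nop56 was 0.0093 and -0.028 (WT), 0.15 and 0.22 (KO1), 0.055 and -0.062 (KO2) and -0.09 and -0.023 (KO3), highest in the 2 KO1 lysates. In the fit with 1 transcript for each gene the TE change was 0.18 (SE 0.0813, adjusted p = 0.674) for KO1, 0.0085 (SE 0.0933, adjusted p = 1) for KO2 and -0.058 (SE 0.0806, adjusted p = 0.955) for KO3, so that none was called.

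Fitting all transcripts separately gave other values along the gene. A read on a shared exon is counted on each transcript, so these transcripts are not independent. ENSMUST00000150401.7, annotated for nonsense-mediated decay and beginning in intron 8, had RNA counts of 781 and 812 (WT), 655 and 594 (KO1), 686 and 762 (KO2) and 1157 and 971 (KO3), lowest in KO1. The footprint counts of this transcript were 262 and 171 (WT), 465 and 99 (KO1), 332 and 181 (KO2) and 324 and 267 (KO3). In KO1 its RNA changed (-0.30, SE 0.0815, adjusted p = 0.00185) and its footprints (0.35, SE 0.112, adjusted p = 0.0123), where 40.6% and 23% of all transcripts were called. The TE change in KO1 was 0.65 (SE 0.133, adjusted p = 0.00924), the 1 Nop56 transcript called for TE, against 0.168% of 38614 transcripts. The coding sequence of this transcript starts at chr2:130277218, within the snoRNA gene Gm23187. Of its 518 bases, 112 lie outside the full-length coding sequence. Reads of the snoRNA gene or of intron 8 can thus enter its counts, and their part in this value was not tested.

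Other transcripts of the 3′ exons had TE changes in KO1 of 0.55 (SE 0.14, adjusted p = 0.109) for ENSMUST00000159373.1, 0.36 (SE 0.113, adjusted p = 0.289) for ENSMUST00000146454.8 and 0.35 (SE 0.102, adjusted p = 0.212) for ENSMUST00000028890.14. Those of the 5′ exons had 0.019 (SE 0.107, adjusted p = 0.997) for ENSMUST00000136621.8 and -0.11 (SE 0.12, adjusted p = 0.901) for ENSMUST00000141872.1. ENSMUST00000149955.8, which runs from exon 5 to exon 9, had 0.22 (SE 0.159, adjusted p = 0.818), with RNA counts of 343 and 344 in WT and 349 and 333 in KO1. No Nop56 transcript was called for TE in KO2 or KO3 (0.0157% and 0.0939% of all transcripts), where changes ran from -0.13 to 0.22 and from -0.13 to 0.058. In RNA, 5 Nop56 transcripts were higher in KO3 (37% of all transcripts called), none was called in KO2 (15.4%), and ENSMUST00000141872.1 also rose in KO1 (0.18, adjusted p = 0.0369, 40.6%). In footprints none was called in KO2 or KO3 (8.72% and 24.5%). Besides ENSMUST00000150401.7, footprints of 4 transcripts were called higher in KO1 (23%). These were ENSMUST00000159373.1 (0.35), ENSMUST00000146454.8 (0.30), ENSMUST00000028890.14 (0.28) and the full-length ENSMUST00000103198.10 (0.22). ENSMUST00000143547.1 had at most 2 RNA counts in a library and was not tested.

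RNA reads were spread along Nop56 differently in KO1 and KO3 than in WT. Counts on ENSMUST00000136621.8 (exons 1 to 6), as a percentage of those on ENSMUST00000146454.8 (exons 7 to 11), which share no exon, were 120.0 and 115 (WT), 138 and 130.3 (KO1), 122 and 119 (KO2) and 106 and 105 (KO3) in RNA-seq. KO1 is above and KO3 below WT without overlap, while KO2 overlaps WT. In footprints the percentages were 117 and 131 (WT), 109.6 and 113 (KO1), 109 and 132 (KO2) and 122 and 113 (KO3), and here KO1 lies below WT. KO2 replicate 1 and KO3 replicate 2 also lie below both WT libraries, and KO1 lies within the range of KO2. Low footprint percentages were thus not particular to KO1. The opposite shifts of RNA and footprints in KO1 are those seen as TE changes of the 3′ transcripts. These percentages were not tested.

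**Figure D4:**
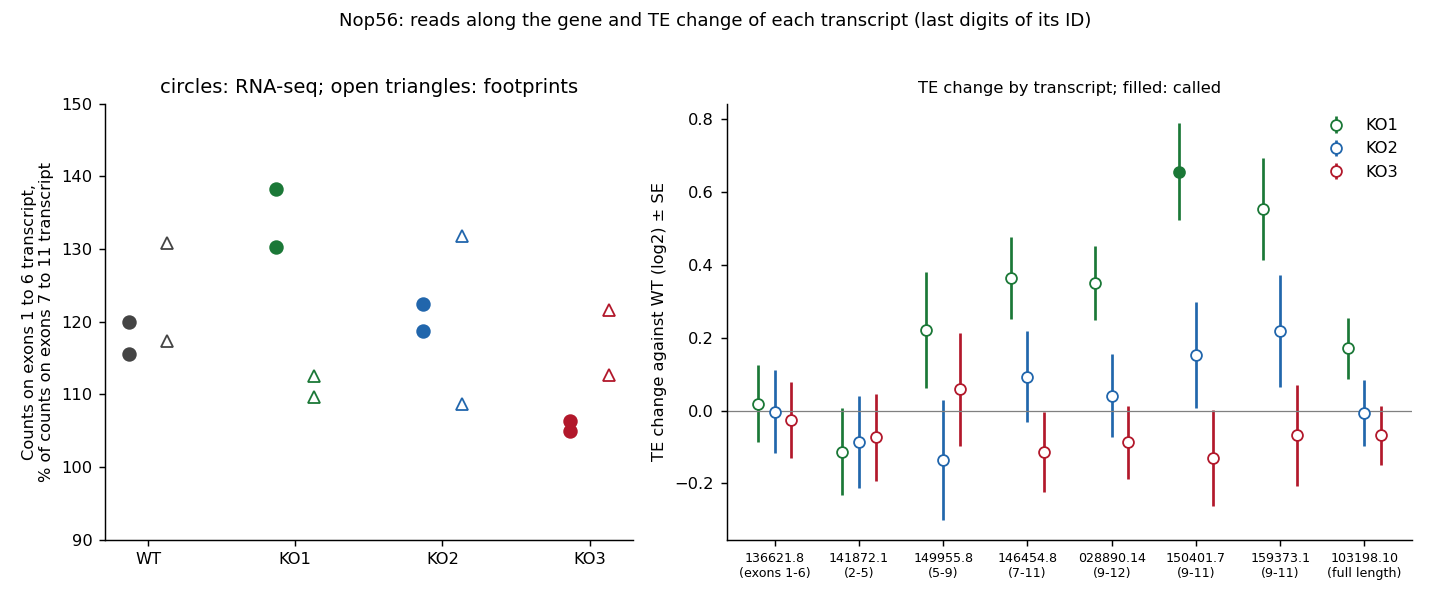
Left, counts on the Nop56 transcript of exons 1 to 6 as a percentage of counts on the transcript of exons 7 to 11, by line, with RNA-seq as circles and footprints as open triangles; the y axis starts at 90%. Right, TE change of each Nop56 transcript on the log2 scale with its SE, by clone, where the filled KO1 point of ENSMUST00000150401.7 was called.

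RNA changes of the set went with those of their chromosomal neighbours, which was described after the data had been seen. For each gene, the median RNA change of all tested genes outside the set within 5 Mb was computed. Its Pearson's r with the change of the gene itself was 0.657, 0.766 and 0.643 for KO1, KO2 and KO3 (Spearman's rho 0.608, 0.607 and 0.677; n = 42, members close to each other share neighbours, no test). Of the called genes, 14 of 19 (KO1), 9 of 10 (KO2) and 24 of 27 (KO3) had the sign of their neighbours. No cause of these regional differences was tested.

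Chromosome 1 carries 6 of the genes, and 5 of them (Ddx18, Nop58, Wdr75, Rrs1 and Ncl) rose in KO2, where the median of 679 other genes of the chromosome was 0.28 and 45.9% of them were called higher. Neighbours of Ddx18 had a median of 0.39, equal to its own change of 0.39, and those of Nop58 0.21 against 0.40. Chromosome 6 carries Polr1a, Nop2 and Bms1, and all 3 fell in KO3, where the median of 520 other genes was -0.32 and 57.9% were lower. Their changes of -0.60, -0.64 and -0.35 stand beside neighbour medians of -0.31, -0.24 and -0.31. Fbl on chromosome 7, Rrp9 on 9, Bop1 on 15 and Rrn3 on 16 fell in KO1, and their neighbours had medians of -0.43, -0.37, -0.36 and -0.32.

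Some changes were larger than those around the gene or went against them, among them those of Nop2 and Polr1a in KO3 given above. Tsr1 fell by 0.66 in KO3 beside a neighbour median of -0.14 over 136 genes. Ltv1 rose in KO3 by 0.43 where its neighbours had -0.047, and Gar1 rose in KO1 by 0.37 where they had -0.021. Rrn3 in KO2 (-0.32 against 0.089), Utp4 in KO1 (-0.28 against 0.021), Polr1b in KO1 (-0.23 against 0.084) and Dkc1 in KO3 (-0.25 against 0.019) also had no such neighbourhood. Over the 42 genes, the median size of the change was 0.124, 0.0942 and 0.187 in KO1, KO2 and KO3, and after subtraction of the neighbour median it was 0.0648, 0.0775 and 0.147.

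**Figure D5:**
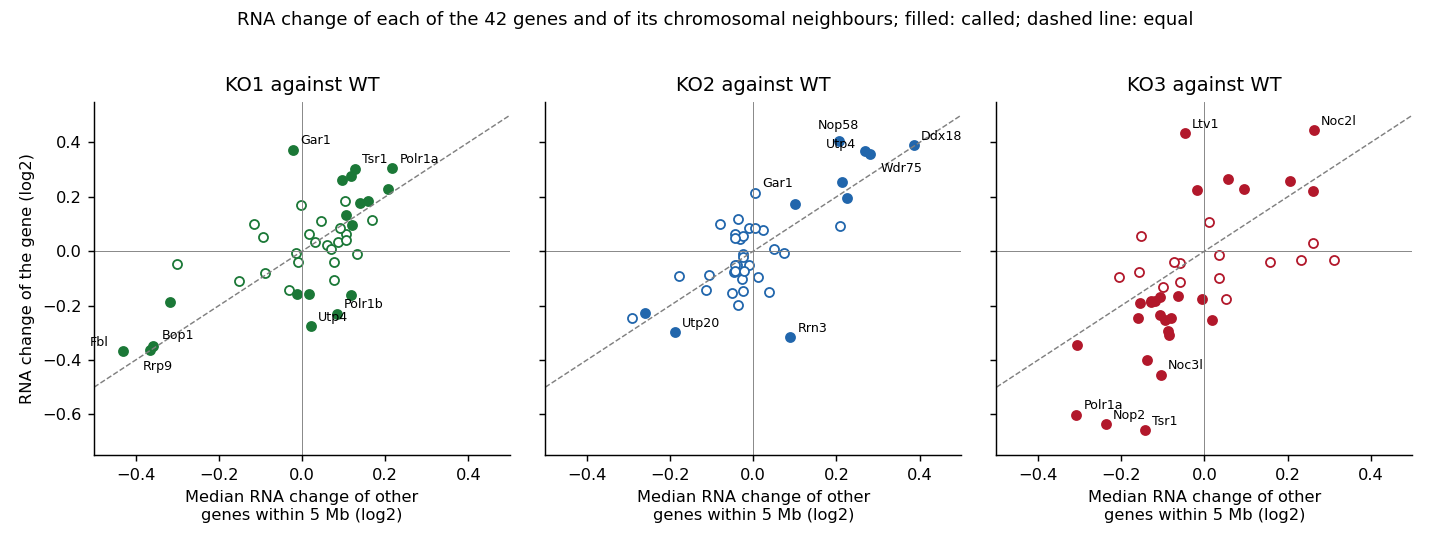
RNA change of each of the 42 genes against the median RNA change of other genes within 5 Mb, both on the log2 scale, with 1 panel for each clone, filled points for called genes and a dashed line of equal change. Fbl, Rrp9 and Bop1 in KO1 and Ddx18 in KO2 lie on or near the line. Gar1 in KO1, Rrn3 in KO2 and Ltv1, Tsr1 and Nop2 in KO3 lie far from it.

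Members that host snoRNAs were frequent in the set. The annotation places snoRNA genes within 7 of 42 genes (16.7%), against 256 of 21611 protein-coding genes (1.18%). Nop56 holds 5, Nop58 holds 4, Ncl, Gnl3 and Wdr43 hold 3 each, Tsr1 holds 2 and Dkc1 holds 1. Of these 7 host genes, 2 rose and 0 fell in KO1, 2 rose and 0 fell in KO2, and 1 rose and 4 fell in KO3 in RNA, where 22.1% and 24.6%, 11.6% and 8.84%, and 23.1% and 22.3% of all genes were called higher and lower; with 7 genes nothing is read from these counts. Levels of the snoRNAs were not measured, since the counts are those on annotated coding sequences. Of Nop56, the coding sequence of ENSMUST00000028890.14 holds all of Gm23187 and that of ENSMUST00000150401.7 a part of it.

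The E-box CACGTG, the sequence that MYC with MAX binds best, was searched in RefSeq promoter windows of GRCm38.p6, from 250 bases before to 50 bases after the start, where a match reads the same on both strands. A window was found for 37 of the 42 genes, and 9 of them (24.3%) held the motif in at least 1 window, against 9.18% of 16620 genes of the table. By windows of equal length, 9 of 46 (19.6%) held it, against 8.04% of 20266. Matches upstream of the start were in Nop2 and Rrn3, which are shown with the motif in capitals because their RNA moved in opposite directions in KO1 and KO3.
Nop2, 60 bases before the start (chr6:125131813-125131838, plus strand): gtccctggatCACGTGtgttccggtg
Rrn3, 215 bases before the start (chr16:13780474-13780499, plus strand): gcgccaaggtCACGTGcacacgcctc
Rrn3, 48 bases before the start (chr16:13780641-13780666, plus strand): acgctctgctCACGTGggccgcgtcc
The other matches, in Utp4, Ltv1, Utp20, Pes1, Mybbp1a, Tsr1 and Wdr43, lay within the first 50 transcribed bases. Of the 9 genes, 4 rose and 2 fell in KO1, 1 rose and 2 fell in KO2, and 3 rose and 4 fell in KO3 in RNA, where 46.7%, 20.4% and 45.4% of all genes were called in either direction, and nothing is read from these counts.

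Myc RNA was at 276 and 278 CPM (WT), 204 and 205 (KO1), 270.2 and 283 (KO2) and 273 and 297 (KO3) and fell in KO1 (-0.44, SE 0.0536, adjusted p = 1.1e-09), with footprints lower (-0.50, SE 0.0745, adjusted p = 4.81e-07). In KO2 and KO3 the RNA change of Myc was 2.15e-04 and 0.04. Max, its partner, was at 37 and 37.7 CPM (WT), 25.7 and 29.2 (KO1), 35.5 and 37.7 (KO2) and 42.4 and 49.3 (KO3), lower in KO1 (-0.45, SE 0.107, adjusted p = 0.000458) and higher in KO3 (0.29, SE 0.0966, adjusted p = 0.0094). Mycn was low in all lines, at 3.55 and 2.81 CPM (WT), 3.29 and 5.72 (KO1), 1.68 and 1.87 (KO2) and 8.01 and 8.93 (KO3), and rose in KO3 (1.41, SE 0.24, adjusted p = 6.58e-07). The part of these regulators in the changes of the set was not tested. Eef1d RNA, by its most abundant transcript, had changes of -0.078 (SE 0.0574, adjusted p = 0.272) for KO1, 0.10 (SE 0.0593, adjusted p = 0.266) for KO2 and -0.53 (SE 0.062, adjusted p = 1.1e-11) for KO3, and its TE was called in no clone.

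A list of 100 further ribosome biogenesis genes, all tested, gave the wider pathway. For RNA, 14 were higher and 23 lower for KO1, 10 and 5 for KO2 and 12 and 34 for KO3, with medians of -0.05, -0.0079 and -0.073. Over all genes the shares called higher and lower were 22.1% and 24.6% (KO1), 11.6% and 8.84% (KO2) and 23.1% and 22.3% (KO3), so that the counts in KO1 and KO2 were near or below them, and the 34 lower genes in KO3 above. For footprints, 3 were higher and 13 lower for KO1, 4 and 7 for KO2 and 6 and 30 for KO3, against 11.7% and 15.2%, 6.74% and 4.96%, and 14.9% and 15.7% of all genes. For TE, 0 were called in each clone. The largest RNA falls in KO1 were those of Snu13, a protein that binds box C/D snoRNAs (-0.74, SE 0.0669, adjusted p = 7.27e-14), and Imp3 (-0.70, SE 0.121, adjusted p = 2.47e-06), and the largest rises those of the polymerase subunits Polr1d (0.51, SE 0.0559, adjusted p = 3.83e-11) and Polr1c (0.42, SE 0.0746, adjusted p = 4.5e-06). In KO2, Krr1 (-0.56, SE 0.092, adjusted p = 8.92e-05) and Rrp1 (-0.42, SE 0.0572, adjusted p = 8.86e-06) fell and Taf1a (0.49, SE 0.139, adjusted p = 0.0127) and Taf1c (0.47, SE 0.139, adjusted p = 0.0173), subunits of the RNA polymerase I selectivity factor, rose. In KO3, Nle1 (-0.86, SE 0.116, adjusted p = 1.42e-09) and Rcl1 (-0.71, SE 0.0695, adjusted p = 6.24e-15) fell and Fcf1 (0.56, SE 0.0869, adjusted p = 8.49e-08) and Krr1 (0.37, SE 0.0795, adjusted p = 6.86e-05) rose.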

How the data were processed

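Ribo-seq and RNA-seq libraries from WT cells and 3 Eef1d exon 5 knockout clones were used, with 2 replicates of each line and 16 libraries in all. Per the deposited tables and methods, the authors trimmed reads with fastp 0.21.0 and aligned them with STAR 2.7.0a to mm10 (versions from the submitters' processing notes), and counted reads by their ribosomal A site on coding sequences without the first and last 5 codons. The deposited values are raw counts per transcript, not normalized, and a read that fits several transcripts is counted on each. The labels name polyA RNA whereas the protocol describes rRNA depletion, which was not settled here. The methods speak of biological replicates and do not describe how they were grown, so p-values measure the spread between these samples.

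One transcript was kept per gene, the one with the largest sum over the 16 libraries. Counts were filtered (filterByExpr), scaled by TMM within each assay and fitted with edgeR 4.0.16 (R 4.3.3) quasi-likelihood models for each clone against WT; TE was the interaction of line and assay. Calls had a Benjamini-Hochberg adjusted p under 0.05 over all genes. The tests were tested on simulated data with known changes. DESeq2 1.42.0, other filters, size factors, all transcripts, left-out replicates and blocks were alternatives. The 42 genes and all lists were chosen with earlier results of these data known. One gene of the marker list is not reported here. Values by library are given for Nop56, for up to 3 called genes with the largest rise and fall in each clone and measure, for genes called in 1 direction in all clones, and for those whose changes differed most between clones. The neighbour description, the promoter and snoRNA counts and the comparison of KO3 with KO1 were added after the data had been seen. Positions and the snoRNA genes counted within genes come from GENCODE on GRCm38 (a release near, and not equal to, that of the files). Promoters and the coordinates of the snoRNAs within Nop56 come from RefSeq on GRCm38.p6.

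Replicate numbers were not shown to pair libraries of different lines. Both assays of a replicate come from 1 lysate, and deviations of same-lysate libraries correlated by 0.0565 to 0.183.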

Additional observations from a re-analysis of the deposited data

Results flagged for a closer look

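By edgeR's test of equal changes, the RNA changes of 36 of the 42 genes differed between the 3 clones (85.7%, against 74% of all genes tested). The footprint changes of 31 differed (73.8%, against 59.5%). Differences between the clones were thus frequent over all genes, and the smaller SE of the set limits the comparison of these shares. For RNA the smallest adjusted p-values were 5.06e-15 (Tsr1), 5.44e-15 (Nop2) and 1.76e-14 (Polr1a), and each of these genes was higher in both KO1 libraries and lower in both KO3 libraries than in both WT libraries. For footprints they were 3.04e-14 (Polr1a), 2.77e-13 (Nop2) and 1.23e-11 (Tsr1). No cause of these differences was tested.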

How the results depend on the processing

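Counts of genes called for RNA stayed within 1.5 times the reported ones under every alternative, and so did those of the comparison between clones for RNA and footprints. DESeq2 called fewer genes for footprints, 3 (KO1), 1 (KO2) and 9 (KO3); the cause was not tested. Leaving out 1 replicate gave 13 to 17 (KO1), 8 to 15 (KO2) and 18 to 28 (KO3) genes for RNA and 5 to 12, 4 to 8 and 12 to 17 for footprints. KO1 footprint counts were 5 without KO1 replicate 1, 6 without WT replicate 1 and 7 without WT replicate 2.

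TE calls stayed at 0 except with a block. With the replicate number as a block, or with the lysate as a block, 1 gene (Gar1) was called for TE in KO1 and 1 (Gar1) in the test between clones. The replicate block gave 23, 11 and 27 genes for RNA and 15, 9 and 22 for footprints. For RNA and footprints, the shares of all genes called under the alternatives are not given here. These counts therefore show only how the calls of the set moved. Deviations of same-numbered libraries of different lines correlated by 0.0247 to 0.224, with 2 pairs in each comparison. Those of the 2 assays of 1 lysate, which are paired, correlated by 0.0565 to 0.183. These ranges overlap, so the values cannot decide whether the numbers mark pairs, and the main fits used no block.

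The TE change of Nop56 in KO2, near 0, turned to -0.00702 with all transcripts, to -0.00048 with DESeq2 and to -0.00289 with all lines in 1 fit, and ran from -0.061 to 0.051 over left-out replicates, with -0.010 without WT replicate 2. That of Gar1 ran from -0.24 to 0.14 in KO2 and from -0.21 to 0.17 in KO3, positive without WT replicate 1. The TE change of Gar1 in KO1 had an SE of 0.132, which holds both counting error and replicate spread.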
